A study of Mus musculus with 9 samples.

Results

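The 10 genes described here are Fos, Fosb, Jun, Junb, Egr1, Ier2, Dusp1, Atf3, Klf2 and Klf4, a set of immediate-early and related genes measured in whole mouse kidneys at E15.5. They were chosen by symbol, and each is 1 of the 24138 loci of the expression table, with a single gene name at its locus. The kidneys came from 3 crosses and were of 3 genotypes on the C57Bl6/J background, with 3 libraries each. Foxd1GC/+;Ntn1fl/fl kidneys (MUT) carried a GFP-Cre allele of Foxd1 and had both alleles of Ntn1, the gene of the secreted guidance cue netrin 1, flanked by loxP sites. Foxd1GC/+;Ntn1fl/+ kidneys (HET) carried the same Cre and 1 floxed allele, and Ntn1fl/fl kidneys (WT) carried both floxed alleles and no Cre. Foxd1 drives Cre in stromal progenitors and the cells that descend from them, and the insertion takes up 1 Foxd1 allele in HET and MUT but not in WT. The comparisons ask whether the 10 genes differed with loss of Ntn1 in the stroma, MUT against HET being the pair that shares Cre.

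Immediate-early genes are transcribed within minutes of a stimulus, without the synthesis of new protein. Growth factors, stress and handling of the tissue all act on them through MAP kinases and through the factors SRF, ELK and CREB that are already bound or present in the nucleus. Fos, Fosb, Jun and Junb encode subunits of the dimeric transcription factor AP-1. Egr1 encodes a zinc finger activator, Ier2 a small nuclear protein, and Atf3 a stress-induced bZIP factor that can dimerise with JUN proteins. Dusp1 encodes a phosphatase that switches MAP kinases off, and so belongs to the feedback arm of the same response. Klf2 and Klf4 encode Krüppel-like zinc finger factors, and in endothelium both are known as flow-responsive regulators of the quiescent vessel.

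RefSeq promoter sequences on GRCm38.p6 matched 8 of the 10 genes, and the 250 bases before the start of each were searched on both strands for 6 motifs. The promoters of 4 genes are printed because these genes stand for the groups below: Fos and Jun, which deviated furthest in single libraries, Dusp1, which followed Fos in rank, and Klf4. Capitals mark TATAAA in Fos, the cyclic AMP response element TGACGTCA in Dusp1, and the reverse complement of the EGR motif GCGNGGGCG in Klf4. The Fos window is chr12:85473640-85473889 on the plus strand, that of Jun chr4:95052223-95052472 on the minus strand, that of Dusp1 chr17:26508473-26508722 on the minus strand and that of Klf4 chr4:55532476-55532725 on the minus strand.
Fos: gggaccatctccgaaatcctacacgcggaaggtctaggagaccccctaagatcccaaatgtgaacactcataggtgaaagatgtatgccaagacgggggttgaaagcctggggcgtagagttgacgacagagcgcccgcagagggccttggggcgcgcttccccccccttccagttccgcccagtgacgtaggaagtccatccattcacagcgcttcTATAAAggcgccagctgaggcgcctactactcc
Jun: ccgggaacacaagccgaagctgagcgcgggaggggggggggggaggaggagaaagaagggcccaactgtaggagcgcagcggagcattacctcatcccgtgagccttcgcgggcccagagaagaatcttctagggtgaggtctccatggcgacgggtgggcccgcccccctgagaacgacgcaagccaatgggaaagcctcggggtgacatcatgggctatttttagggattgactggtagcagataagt
Dusp1: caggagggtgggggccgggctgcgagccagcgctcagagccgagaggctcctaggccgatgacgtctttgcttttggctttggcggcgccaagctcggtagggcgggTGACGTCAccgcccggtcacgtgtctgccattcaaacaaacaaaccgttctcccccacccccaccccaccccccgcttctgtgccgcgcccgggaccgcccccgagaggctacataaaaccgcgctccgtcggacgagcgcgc
Klf4: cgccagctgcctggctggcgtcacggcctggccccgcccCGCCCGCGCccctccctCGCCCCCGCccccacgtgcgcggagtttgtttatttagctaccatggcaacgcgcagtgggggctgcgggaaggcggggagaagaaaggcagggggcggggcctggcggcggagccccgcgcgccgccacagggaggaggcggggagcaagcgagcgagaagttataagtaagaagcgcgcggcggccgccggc
TATAAA lay 33 to 28 bases before the start of Fos and was found in no other of the 8 windows, against 12.4% of all 32851 promoter windows of the same length. TGACGTCA lay 143 to 136 bases before the start of Dusp1 and was found in 1.55% of all windows. GCGNGGGCG was found in Fosb, Klf2 and Klf4, 3 of 8, against 4.70% of all windows, and it overlaps the GC box GGGCGG in all 3. GGGCGG was found in 7 of 8 windows, all but Junb, and in 32.7% of all windows. The 8 windows were 58.4% to 74.0% GC against a median of 52.4% over all windows, and the motif shares were not matched for GC content. The AP-1 motif TGANTCA (6.75% of all windows) and the CArG box bound by SRF (1.47%) were found in none of the 8. The pattern TGANTCA does not take in longer variants, such as the TGACATCA in the Jun window. Bases further upstream, and Egr1 and Ier2, were not searched, so whether the genes hold these motifs elsewhere was not tested. These matches describe the letters in these windows and say nothing of binding.

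The unit is FPKM, fragments per kilobase of transcript scaled to the library, so levels can be set beside each other between genes. FPKM of a library summed to between 453753 and 545598, lowest in WT-1 and MUT-1 (457192), and the spacing of the lowest values gave a rough 33300000 to 73600000 fragments a library. Ntn1 was 17.8 to 28.9 FPKM in WT, 12.0 to 16.5 in HET and 10.8 to 16.5 in MUT. Every HET and MUT library thus lay below every WT library, while HET and MUT overlapped, and the value of the locus does not tell deleted from intact transcripts. All 8 kidney markers were present. Sums of markers of other tissues stood apart in HET-2 (liver 660 FPKM against 26.4 to 49.4 elsewhere, neutrophil 45.1 against 3.98 to 7.42) and in HET-3 (skeletal muscle 76.3 FPKM against 2.38 to 6.70) and the MUT against HET differences without these libraries are given below where they move by over 1.5 times. GC-rich transcripts, measured as the log2 level of the top tertile of GC content minus the bottom tertile, were lowest in WT-3 (-0.31) and HET-3 (-0.17), against -0.06 to 0.20 in the other 7 libraries. In whole kidney RNA, fewer cells of a type and less RNA per cell cannot be told apart.

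Averaged over the 9 libraries, Ier2 (40.8 FPKM) and Jun (28.6 FPKM) were the most abundant of the 10 genes. Klf2 followed at 13.9 FPKM, Egr1 at 11.3, Dusp1 at 9.34, Junb at 5.62, Klf4 at 4.84, Fos at 1.65, Atf3 at 1.64 and Fosb at 0.111. Neighbours in this order overlapped between libraries except at Jun over Klf2 and at Atf3 over Fosb. The lowest Jun value, 19.7 FPKM, lay above the highest Klf2 value, 17.1 FPKM. Fos exceeded Atf3 in only 2 of 9 libraries although its mean was the higher. Jun, Junb, Egr1, Ier2, Dusp1, Klf2 and Klf4 reached the minimum of 5 FPKM in at least 1 genotype and were tested there, while Fos, Fosb and Atf3 stayed below it. Klf4 did not reach it in HET or WT and was not tested between those 2 genotypes.

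**Figure D1:**
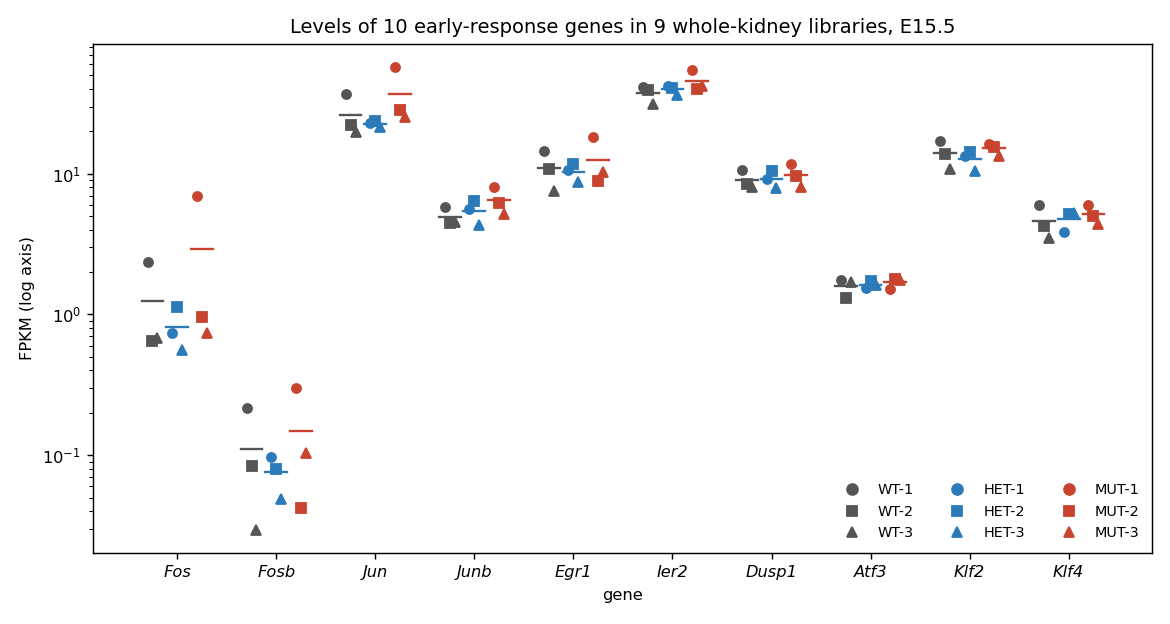
FPKM of the 10 genes in each library on a log axis, with WT in grey, HET in blue and MUT in red, circles, squares and triangles for replicates 1 to 3, and a line at the mean of each genotype. The red circles (MUT-1) are the highest points for Fos, Fosb, Jun, Junb, Egr1, Ier2 and Dusp1, up to 6.99 FPKM for Fos and 57.3 FPKM for Jun.

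Fos, on chromosome 12 from 85473901 to 85477270 (plus strand, mm10), encodes the AP-1 subunit that is the classical early-response readout. Libraries 1, 2 and 3 of each genotype, in this order, held 2.37, 0.652 and 0.683 FPKM in WT, 0.743, 1.13 and 0.563 FPKM in HET and 6.99, 0.958 and 0.739 FPKM in MUT. The level in MUT-1 was 9.43 times the median of the other 8 libraries and 8.24 times the mean of the other two MUT libraries. WT-1 came second, at 3.56 times the mean of WT-2 and WT-3, and the remaining 7 libraries spanned 0.563 to 1.13 FPKM. MUT and HET therefore overlapped: MUT-2 and MUT-3 lay inside the HET range. The mean was 2.89 ± 3.55 FPKM in MUT, 0.812 ± 0.290 in HET and 1.24 ± 0.986 in WT (SD, n = 3 each). On the log2(FPKM + 1) scale, which understates the change of low genes, the difference was 0.74 for MUT against HET and 0.04 without MUT-1 (exact permutation test with all 6 libraries, two-sided, p = 0.5).

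Fosb, a FOS relative, lies on chromosome 7 from 19302696 to 19310045 (minus strand). It was the least abundant of the set, at 0.218, 0.0835 and 0.0295 FPKM in WT, 0.0975, 0.0804 and 0.0492 in HET, and 0.30, 0.0422 and 0.103 in MUT. The order of its top libraries was that of Fos, with MUT-1 first and WT-1 second. By the rough depth estimate these values rest on about 6.38 to 83.6 fragments a library, so the lower ones are imprecise. Its difference between MUT and HET was 0.09 on the log2 scale (exact permutation test, two-sided, p = 0.6), and with no minimum on FPKM its limma adjusted p was 0.829.

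Jun, on chromosome 4 from 95049036 to 95052222 (minus strand), encodes the principal partner of FOS proteins. Jun had 36.8, 22.3 and 19.7 FPKM in the WT libraries, 22.8, 23.9 and 21.6 in the HET libraries and 57.3, 28.2 and 25.2 in the MUT libraries. All 3 MUT libraries lay above all 3 HET libraries, and Jun was the only 1 of the 10 genes whose MUT and HET libraries did not overlap. Over all tested loci the MUT libraries lay wholly above the HET libraries at 5.19% and wholly below at 4.50%. The log2 fold change was 0.58 (SE 0.24, 95% interval 0.05 to 1.11), which did not pass limma's test with Benjamini-Hochberg adjustment (adjusted p = 0.738, exact permutation p = 0.1, the smallest that 3 against 3 allow). Without MUT-1 it was 0.22 (SE 0.10, adjusted p = 0.874 from limma), the direction being held by MUT-2 and MUT-3. Against WT the MUT libraries overlapped, because WT-1 exceeded MUT-2 and MUT-3.

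Junb, on chromosome 8 from 84976909 to 84978748 (minus strand), encodes an AP-1 subunit that often tempers JUN. It measured 8.02, 6.20 and 5.16 FPKM in MUT, 5.59, 6.41 and 4.29 in HET and 5.79, 4.50 and 4.57 in WT. MUT-1 was again highest, but the second was HET-2, and the spread over libraries was narrower than for Fos or Jun. The MUT minus HET difference was 0.21 on the log2 scale (SE 0.18, limma adjusted p = 0.777) and that from WT 0.31 (SE 0.18, limma adjusted p = 1.00). The first was 0.06 without MUT-1, 0.32 without HET-2, 0.08 without HET-3 and 0.11 with the GC correction.

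Egr1, on chromosome 18 from 34861207 to 34864956 (plus strand), had 14.4, 10.8 and 7.51 FPKM in the WT libraries, 10.6, 11.7 and 8.76 in the HET libraries and 18.3, 8.81 and 10.3 in the MUT libraries. MUT-1 and WT-1 were the 2 highest libraries, as for Fos, Fosb and Jun, and WT-3 was the lowest. MUT-2 and MUT-3 lay below HET-1 and HET-2. In MUT against HET the log2 fold change was 0.19 (SE 0.22, limma adjusted p = 0.826) and became -0.10 without MUT-1 and 0.09 without HET-3.

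Ier2, on chromosome 8 from 84661331 to 84662852 (minus strand), measured 54.3, 40.0 and 42.0 FPKM in MUT, 42.2, 40.8 and 36.5 in HET and 41.2, 39.2 and 31.5 in WT. Apart from the high MUT-1 and the low WT-3, its libraries stayed within 36.5 to 42.2 FPKM. Its log2 fold change was 0.18 for MUT against HET (SE 0.13, limma adjusted p = 0.764), 0.04 without MUT-1 and 0.12 without HET-3.

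Atf3, on chromosome 1 from 191170297 to 191183333 (minus strand), did not share this pattern. It had 1.76, 1.32 and 1.71 FPKM in the WT libraries, 1.54, 1.72 and 1.63 in the HET libraries and 1.53, 1.80 and 1.75 in the MUT libraries. MUT-1 was the lowest MUT library and the second lowest of all 9, and the difference of MUT against HET was 0.03 on the log2 scale and 0.06 without HET-2.

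Dusp1, on chromosome 17 from 26505591 to 26508472 (minus strand), measured 11.7, 9.69 and 8.05 FPKM in MUT, 9.12, 10.5 and 7.92 in HET and 10.6, 8.47 and 8.04 in WT. The same 2 libraries, MUT-1 and WT-1, were highest, though only 1.47 times separated the highest library from the lowest, against 12.4 times for Fos. MUT against HET gave a log2 fold change of 0.08 (SE 0.15, limma adjusted p = 0.895) and turned to -0.04 without MUT-1 and -0.01 without HET-3, while it was 0.17 without HET-2.

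Klf2, on chromosome 8 from 72319062 to 72321654 (plus strand), had 17.1, 13.9 and 10.9 FPKM in the WT libraries, 13.5, 14.3 and 10.4 in the HET libraries and 16.4, 15.52 and 13.5 in the MUT libraries. Here WT-1 was the highest library and MUT-1 the second. For MUT against HET its log2 fold change was 0.24 (SE 0.13, 95% interval -0.05 to 0.53, limma adjusted p = 0.738), 0.18 without MUT-1 and 0.11 without HET-3, the library with its lowest value. The summed level of 7 endothelial markers, the cell type in which Klf2 is best known, was 217 to 228 FPKM in WT, 208 to 212 in HET and 211 to 229 in MUT.

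Klf4, on chromosome 4 from 55527137 to 55532475 (minus strand), measured 6.004, 5.04 and 4.39 FPKM in MUT, 3.87, 5.21 and 5.29 in HET and 6.04, 4.23 and 3.49 in WT. The 3 genotypes overlapped throughout, with means of 4.59 ± 1.31, 4.79 ± 0.799 and 5.14 ± 0.813 FPKM (SD, n = 3) in WT, HET and MUT. The log2 fold change was 0.09 for MUT against HET (SE 0.17, 95% interval -0.28 to 0.45, limma adjusted p = 0.901) and 0.15 for MUT against WT (SE 0.20, 95% interval -0.29 to 0.59, limma adjusted p = 1.00). The first of these became -0.01 without MUT-1, which left Klf4 under the minimum and untested, and was 0.14 without HET-2 and 0.15 without HET-3. Klf4 was the only gene of the 10 with its highest HET value in HET-3.

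As a set, none of the 10 genes was called in any of the 3 comparisons, at a limma adjusted p under 0.05. In MUT against HET 0% of all loci tested were called (0 of 10081, with 636 at an unadjusted p under 0.05), in MUT against WT 0% (0 of 10096, with 65) and in HET against WT 0% (0 of 10105, with 108). In MUT against HET all 10 genes had a positive difference, and the median over the 7 tested was 0.19, against -0.02 over all loci tested, of which 45.9% were positive. In MUT against WT all 10 were again positive and the median of the 7 tested was 0.16, but these fits share the MUT libraries with the first. Klf4 reached the minimum of 5 FPKM through MUT alone in both comparisons (5.14 FPKM against 4.79 in HET and 4.59 in WT). Junb did so against WT (6.46 against 4.95 FPKM). Entry by the higher genotype tilts these 2 genes towards positive values in the medians. Without MUT-1 the MUT against WT difference was negative for 4 of the 10 (Fos -0.19, Fosb -0.05, Egr1 -0.13 and Dusp1 -0.02) and 0.07 for Jun. The tested values ran from 0.10 for Dusp1 to 0.43 for Jun (SE 0.30), each with a limma adjusted p of 1.00. HET and MUT differ from WT in Cre and in 1 Foxd1 allele as well as in Ntn1, and these cannot be told apart in the comparisons with WT. None of the 10 separated MUT from WT without overlap, where 1.32% of all tested loci were higher in MUT and 1.34% lower. In HET against WT 5 genes were positive and 5 negative, from -0.23 for Fos to 0.10 for Junb, each tested gene having a limma adjusted p of 0.998, and none separated the groups (2.15% of all tested loci were higher in HET and 1.06% lower). Leaving out MUT-1 turned the MUT against HET difference negative for Fosb, Egr1, Dusp1 and Klf4, and left Fos at 0.04. With all 3 libraries numbered 1 left out, the MUT against HET differences for Egr1, Dusp1 and Klf4 were -0.08, -0.04 and -0.13. Jun (0.22) and Klf2 (0.23) kept positive values that did not pass the test (adjusted p = 0.999 from limma for both). Junb (0.09), Ier2 (0.09), Atf3 (0.06), Fos (0.02) and Fosb (0.01) stayed positive too. In MUT against WT, where this also leaves out the high WT-1, all 10 differences were positive, from 0.02 for Fosb to 0.33 for Jun.

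**Figure D2:**
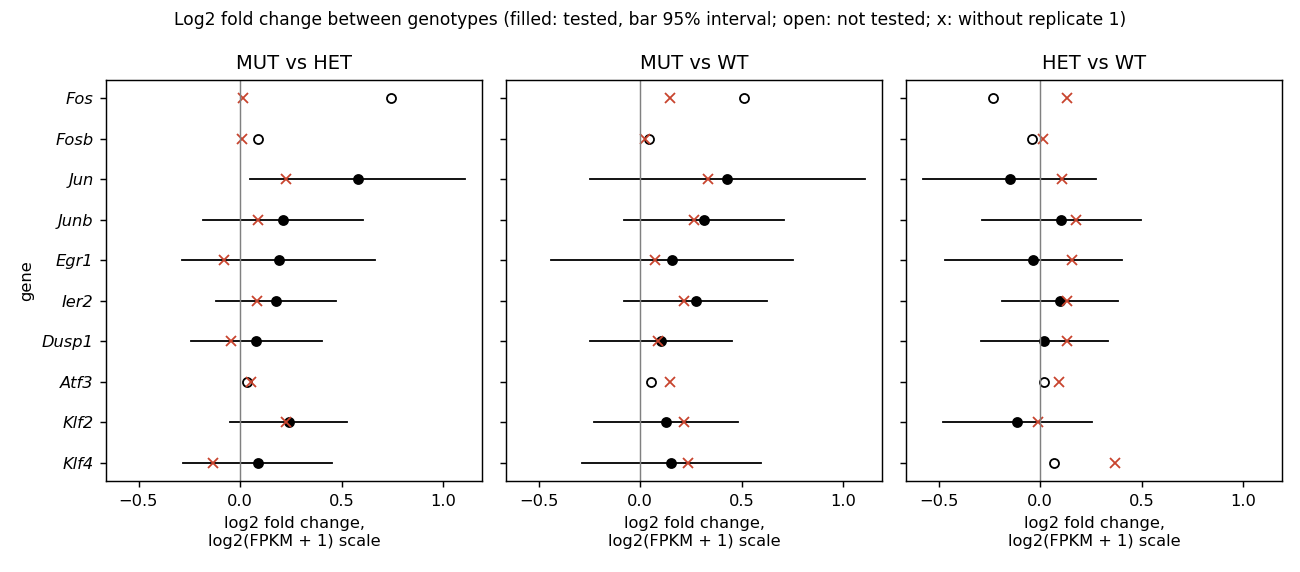
Difference in mean log2(FPKM + 1) between genotypes for each of the 10 genes, as filled points with 95% intervals from limma where tested, open points where not tested, and red crosses for the values without the libraries numbered 1. In MUT against HET the crosses of Egr1, Dusp1 and Klf4 lie below 0 while those of Jun and Klf2 stay at 0.22 and 0.23.

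Most of the 10 genes were high or low in the same libraries, across genotypes. MUT-1, by the rough estimate the deepest library, held the highest value for 7 of them (Fos, Fosb, Jun, Junb, Egr1, Ier2 and Dusp1), whereas it was the highest library for 15.6% of the 9978 loci with a mean of at least 5 FPKM. MUT-1 and WT-1 together were the 2 highest libraries for 7 of the 10, all but Junb, Ier2 and Atf3, against 16.9% of those loci. Fos, Fosb, Atf3 and Klf4 have means under 5 FPKM and are not among those loci. Over those loci as a whole, the deviations of MUT-1 and WT-1 from their genotype means also went together (r = 0.56), so their likeness is not particular to the 10 genes. HET-1, which carries the same replicate number, was not raised: its Fos was 0.743 FPKM and its Jun 22.8 FPKM. MUT-1 and WT-1 had the lowest FPKM sums of the 9, and median-ratio rescaling changed their scale by little (factors 0.989 and 0.992). At the low end, WT-3 held the lowest value for 5 of the 10 genes and HET-3 for 4, while these libraries were lowest for 19.6% and 5.39% of the 9978 loci. They are the same 2 libraries in which GC-rich transcripts were lowest. The transcripts of the 10 genes are 51.9% to 62.6% GC. The median was 49.8% over the 9642 loci with a mean of at least 5 FPKM and a matched transcript. After correction of each library for transcript GC content, WT-3 and HET-3 held the lowest value for 3 and 2 of the genes, while MUT-1 was the highest for 7. In this count the lowest library of Fosb passed from WT-3 to HET-2. The correction was fitted on loci with a mean of at least 5 FPKM and is large beside the values of Fosb.

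**Figure D3:**
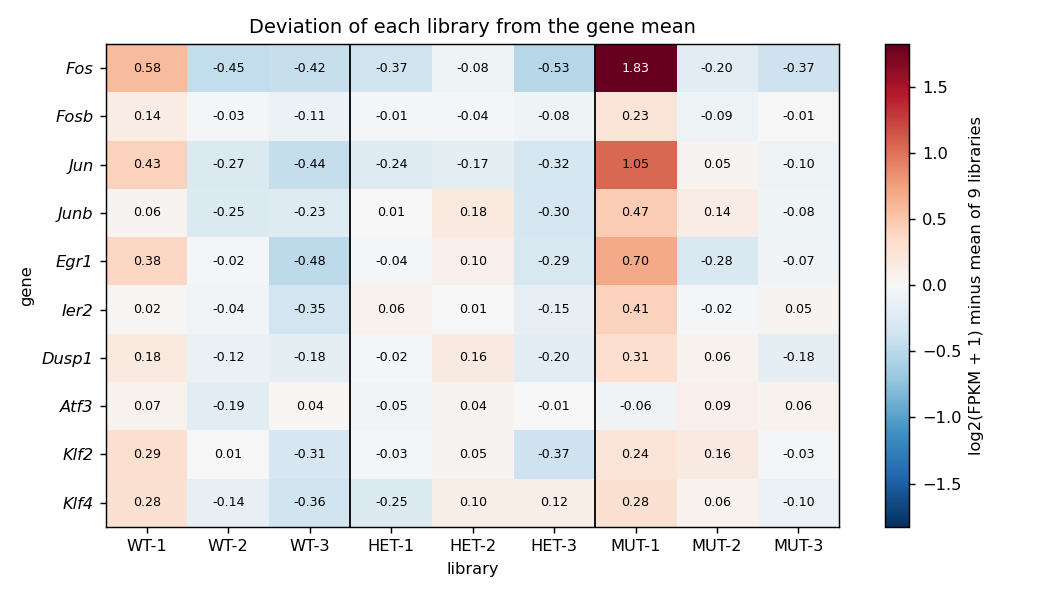
Each cell gives log2(FPKM + 1) of a gene (rows) in a library (columns) minus the mean of the gene over the 9 libraries, in red where above and in blue where below. The MUT-1 column is red for all but Atf3, up to 1.83 for Fos and 1.05 for Jun, and the WT-1 column follows with 0.58 for Fos and 0.43 for Jun.

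The spread between libraries of 1 genotype was measured as the pooled SD of log2(FPKM + 1). It was 0.79 for Fos, 0.45 for Jun and 0.40 for Egr1, against a median of 0.16 over the 9978 loci. Fos, Fosb, Atf3 and Klf4 have means under 5 FPKM and are not among these loci, so they are set beside loci of higher level. Jun stood at rank 141 from the top of these loci and Egr1 above 98.1% of them. Klf4 (0.25), Junb (0.24), Klf2 (0.23), Dusp1 (0.21) and Ier2 (0.19) lay above that median by less. Fosb (0.12) and Atf3 (0.10) lay below it, on a scale that compresses values under 1 FPKM. For Jun the SD was 0.07 among HET libraries, 0.46 among WT and 0.62 among MUT.

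**Figure D4:**
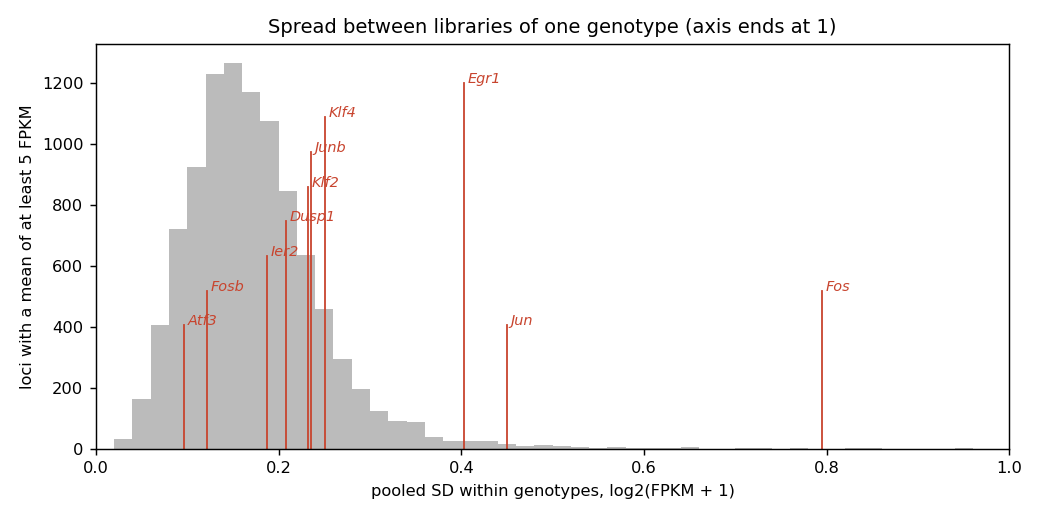
Histogram of the pooled SD within genotypes of log2(FPKM + 1) over loci with a mean of at least 5 FPKM (grey, axis cut at 1), with red lines at the values of the 10 genes. Fos, Fosb, Atf3 and Klf4 have means under 5 FPKM and are not in the histogram. Fos (0.79), Jun (0.45) and Egr1 (0.40) lie in the right tail, and Atf3 (0.10) and Fosb (0.12) to the left of the median of 0.16.

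The genes were then set against Fos over the 9 libraries, 9 relations in all, on log2(FPKM + 1). Pearson's r with Fos was 0.97 for Jun (rho 0.87), 0.92 for Fosb (rho 0.57) and 0.88 for Egr1 (rho 0.75). For Jun the exact permutation p was 0.00124 for r, adjusted to 0.00557 over the 9 relations, and 0.0045 for rho, adjusted to 0.0101. For Fosb the adjusted exact permutation p was 0.0102 for r and 0.149 for rho, and for Egr1 0.00752 and 0.0459. Without MUT-1 and WT-1, the 2 libraries farthest from the median of Fos, r fell to 0.60 for Jun, 0.10 for Fosb and 0.42 for Egr1, so these relations rest on those libraries in whole or in part. For Dusp1 and Junb the remaining libraries showed the relation too. Their r with Fos was 0.84 and 0.82 (adjusted exact permutation p = 0.000471 and 0.0102), rho was 0.95 for both (adjusted exact permutation p = 0.00159), and r was 0.92 and 0.94 over the 7 libraries left. Corrected for GC content, r over those 7 was 0.90 for Dusp1 and 0.92 for Junb, but 0.48 for Jun and -0.05 for Egr1. For Fosb it was -0.60, a value that is not read as a relation. The correction was fitted on loci with a mean of at least 5 FPKM and is large beside the values of Fosb. It put WT-3, the lowest Fosb library before it, at 0.19 on the log2 scale and made HET-2 the lowest at 0.006. Ier2 had r = 0.79 and rho = 0.70 (adjusted exact permutation p = 0.0222 and 0.0649), Klf2 r = 0.66 and rho = 0.87 (adjusted exact permutation p = 0.0451 and 0.0101), and Klf4 r = 0.67 and rho = 0.55 (adjusted exact permutation p = 0.0400 and 0.149). Over the 7 libraries left r was 0.41 for Ier2, 0.72 for Klf2 and 0.38 for Klf4, and with the GC correction -0.26, 0.71 and 0.22. Atf3 gave r = -0.05 and rho = 0.28 (adjusted exact permutation p = 0.910 and 0.463). Over all 9978 loci the median r with Fos was -0.11, and 14 loci (0.140%) reached 0.9. Of the members only Jun and Fosb did so. The share of loci at the lower r of the other members was not computed, nor that for rho or for the 7 libraries left. Whether these relations are particular to the members was therefore not tested. All points of a library share its depth and base composition, and the part of these in the relations was not tested beyond the GC correction.

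**Figure D5:**
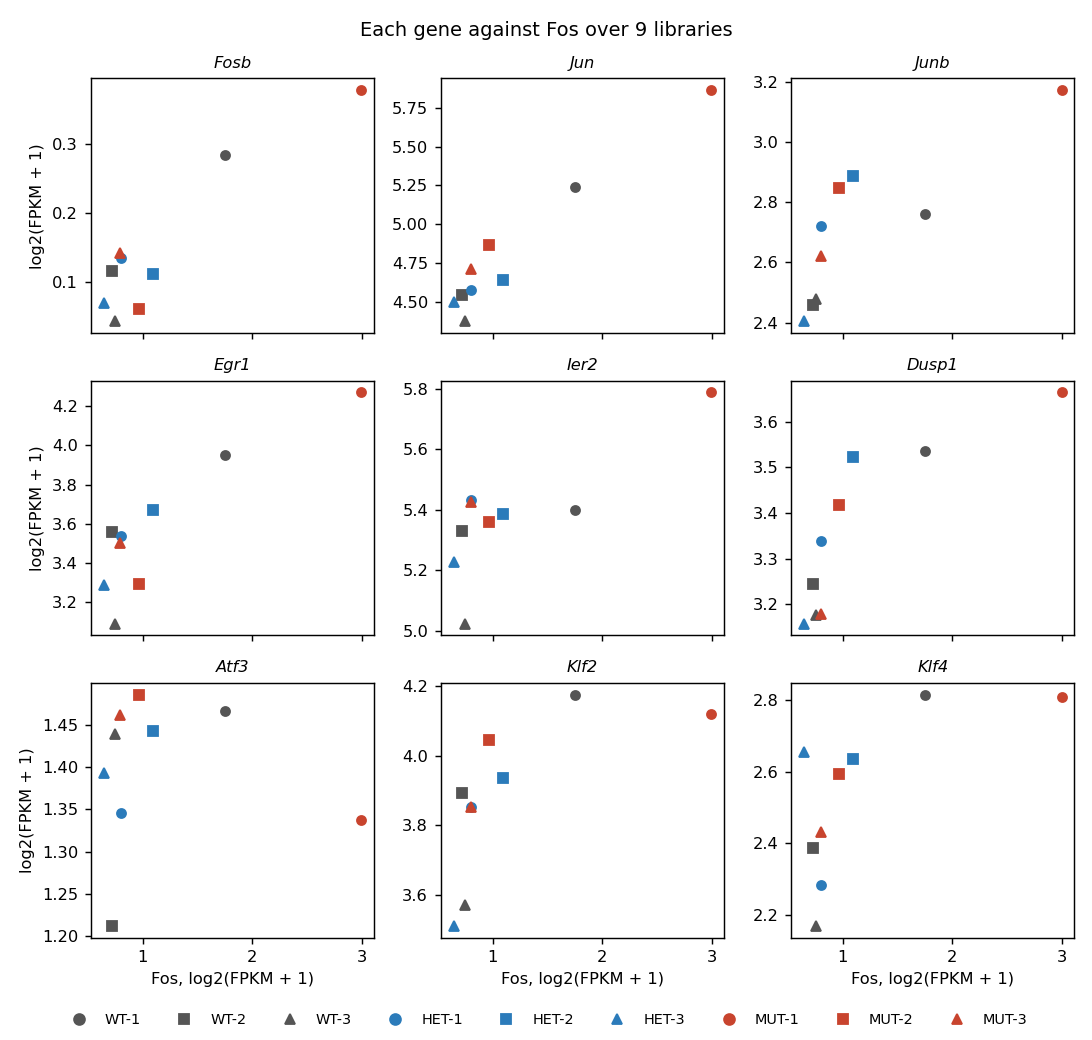
Each panel plots a gene against Fos, both as log2(FPKM + 1), with 1 point per library and the colours and symbols of genotype and replicate given in the key. The MUT-1 point lies far to the right in every panel and WT-1 is second, and among the other 7 points Dusp1 and Junb still rise with Fos (r = 0.92 and 0.94).

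The loci whose profile over the 9 libraries was most like the mean of Fos, Fosb, Junb, Egr1, Ier2, Atf3 and Dusp1 were Cgn (r = 0.98), Paxip1 (0.95), Atp6v0a1 (0.95), the joined locus of Csrp2bp and Pet117 (0.94) and Myo5b (0.94). Of 9972 candidate loci 54 reached 0.9. Cgn, which encodes the tight junction protein cingulin, was 6.77, 5.34 and 5.21 FPKM in the WT libraries, 5.68, 6.27 and 5.24 in the HET libraries and 7.502, 5.96 and 5.66 in the MUT libraries. It thus had the same top pair of libraries in a range far narrower than that of Fos. Among those most like Klf4 were Lpcat1 (r = 0.94), Itsn1 (0.93), Gprc5b (0.93) and Cttnbp2nl (0.92), and 15 loci reached 0.9. These likenesses are the highest of many and are given as a description.

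Other genes of the response were counted in lists, and in none was a gene called in any comparison. Of the AP-1 partners and bZIP relatives 10 of 15 were tested, with 7 positive and 3 negative differences in MUT against HET and a median of 0.13. The highest was Jund, the AP-1 subunit that is expressed without stimulus, and the lowest Atf4 (-0.15). Jund had 46.0, 46.2 and 37.7 FPKM in the WT libraries, 53.2, 43.7 and 41.6 in the HET libraries and 61.0, 57.2 and 55.6 in the MUT libraries. All MUT libraries lay above all others, MUT-2 and MUT-3 included, with a log2 fold change of 0.33 against HET (SE 0.12, limma adjusted p = 0.738) and 0.42 against WT (SE 0.13, limma adjusted p = 1.00). Over all tested loci 5.19% lay wholly higher in MUT than in HET and 1.32% wholly higher than in WT. The share above both was not computed, and Jund is the highest of its list.

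Of 31 tested among 42 loci of other early-response genes, 17 were positive and 14 negative in MUT against HET, with a median of 0.03, from Zfp36l1 (0.27), which encodes an RNA-decay factor, to Sgk1 (-0.22), which encodes a kinase. All 19 loci of ERK and SRF signalling were tested, 10 positive and 9 negative with a median of 0.04, from Elk4 (0.45) to Map2k1 (-0.12). Elk4 reached the minimum of 5 FPKM through MUT alone, which tilts its value upwards. Its libraries overlapped, at 3.74 to 6.91 FPKM in MUT and 2.41 to 6.17 in HET. Of the MAPK phosphatases and feedback inhibitors, the group of Dusp1, 12 of 15 were tested, 9 positive and 3 negative with a median of 0.14, from Spred2 (0.33) to Dusp6 (-0.21). Of the KLF family 6 of 14 were tested, 4 positive and 2 negative with a median of 0.22, from Klf13 (0.40) to Klf10 (-0.20). Klf13 was 7.67 to 9.59 FPKM in MUT and 6.27 to 6.40 FPKM in HET, without overlap, but 5.76 to 9.65 FPKM in WT. Such a separation, with MUT above HET, was found at 5.19% of all tested loci. Of the heat-shock genes, which encode chaperones induced by another kind of stress, 7 of 9 were tested, 1 positive and 6 negative with a median of -0.12, from Hsp90aa1 (0.10) to Hspa8 (-0.24). Among list members with a mean of at least 5 FPKM, MUT-1 was the highest library for 2 of 10, 6 of 31, 6 of 18, 4 of 12, 3 of 6 and 0 of 7 in the order of the lists above, against 15.6% of all such loci. In HET against WT the medians were 0.04, 0.05, -0.02, -0.07, -0.06 and 0.16 for the 6 lists in the same order, and in MUT against WT they were 0.08, 0.06, 0.01, 0.07, 0.15 and -0.02.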

How the data were processed

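Whole-kidney RNA of 9 E15.5 libraries was sequenced from stranded mRNA libraries. The authors used STAR for alignment and cufflinks with cuffmerge for transcript assembly, and the deposited FPKM are the output of their CuffDiff run. The submitters' processing notes name the build mm10, and tool versions and the annotation are not given in the sources used here. Columns of the authors' means and comparisons were not used.

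Here FPKM were taken as deposited. Loci whose mean reached 5 FPKM in either genotype of a pair entered a linear model of log2(FPKM + 1), fitted by limma 3.58.1 under R 4.3.3 (lmFit, eBayes with a trend) to the 6 libraries of each pair, without a replicate block, two-sided, with Benjamini-Hochberg adjustment over all loci at 0.05. Values of single genes were compared by exact permutation in Python 3.11.15 with scipy 1.17.1. Fragment numbers are rough, from the spacing of low values, and give no counting interval. The kidneys came from 3 crosses, but which cross gave which library is not stated, and p-values measure the spread between these libraries.

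The members, the lists and the rule for named genes were chosen with earlier results of these data known. The rule names all 10 members, Ntn1 and Foxd1 as checks, the lowest and highest of each list, and the 5 loci most like each of 2 profiles, of which 1 is not reported here. Same-numbered libraries did not deviate together in every pair: correlations of deviations were -0.32 to 0.06 for MUT and HET, -0.26 to 0.56 for MUT and WT, and -0.19 to 0.17 for HET and WT, so numbers were not taken to pair them. The value of 0.56 was that of MUT-1 and WT-1. Alternatives were pseudocounts of 0.1 and 3, minimums of 1 FPKM and none, median-ratio rescaling, all 9 libraries in 1 fit, no trend, the replicate block and each library left out. The GC correction (a spline with 5 degrees of freedom in limma, a cubic polynomial for the correlations) and leaving out all libraries numbered 1 were chosen after seeing the data. In data simulated for MUT against HET over 10081 genes, limma called 0% of genes changed 1.2-fold, 34% at 1.5-fold, 84% at 2-fold and 100% at 4-fold, and 7 of 9881 unchanged genes. The noise was drawn for each gene on its own, without effects shared by a library. Foxd1 was 25.8 to 33.7 FPKM in WT, 20.2 to 21.7 in HET and 22.5 to 24.8 in MUT.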

Additional observations from a re-analysis of the deposited data

How the results depend on the processing

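None of the 10 genes was called under any alternative. Over the 583 alternative values computed, 533 counted as kept, 40 reversed and 10 moved, and most of those that turned did so when a library was left out. For fold changes and correlations, kept means the same sign, with the same call for fold changes, and their size was not assessed. For spreads and counts of calls it means a size within set limits. Fos in MUT against HET thus counts as kept, though it fell from 0.74 to 0.04 without MUT-1. The log2 fold changes that changed sign when libraries were left out ranged, in MUT against HET, from -0.042 to 0.20 for Dusp1, -0.0998 to 0.39 for Egr1, -0.0045 to 0.15 for Fosb and -0.13 to 0.18 for Klf4. They ranged, in MUT against WT, from -0.025 to 0.15 for Atf3, -0.021 to 0.22 for Dusp1, -0.13 to 0.37 for Egr1, -0.19 to 0.91 for Fos, -0.047 to 0.11 for Fosb and -0.028 to 0.27 for Klf2. They ranged, in HET against WT, from -0.059 to 0.092 for Atf3, -0.071 to 0.13 for Dusp1, -0.26 to 0.17 for Egr1, -0.41 to 0.13 for Fos, -0.095 to 0.026 for Fosb, -0.016 to 0.17 for Ier2, -0.32 to 0.11 for Jun, -0.0047 to 0.24 for Junb, -0.27 to 0.035 for Klf2 and -0.077 to 0.37 for Klf4. The cause of these changes was not tested beyond the fact that each leaves fewer libraries. The counts of loci called ranged from 0 to 3 in each comparison when a library was left out, and were 0 under all other alternatives. They were 2 without HET-1 and 3 without MUT-3 in MUT against HET, 3 without WT-1 in MUT against WT, and 3 without WT-2 in HET against WT. With the replicate number as a block, 0 loci were called in each comparison (unadjusted p under 0.05 at 494 in MUT against HET, 201 in MUT against WT and 233 in HET against WT), and the block changed no call. With the GC correction Dusp1 in HET against WT was -0.037 in place of 0.021. The same correction moved Junb (0.21 to 0.11) and Ier2 (0.18 to 0.12) in MUT against HET, Klf2 (0.13 to 0.034) and Egr1 (0.16 to 0.096) in MUT against WT, and Egr1 (-0.034 to -0.10) in HET against WT by over 1.5 times. The r of Atf3 with Fos was 0.0063 at a pseudocount of 0.1, 0.017 after median-ratio rescaling and 0.47 without the 2 libraries farthest from the median of Fos. The pooled SD of Fosb was 0.59 at a pseudocount of 0.1 in place of 0.12. Fos, Fosb and Atf3 could not be tested at a minimum of 5 FPKM, and at a minimum of 1 FPKM Fos had a limma adjusted p of 0.775 in MUT against HET. In data simulated for MUT against HET with 3 libraries a genotype, limma called 34% of genes changed 1.5-fold and 0% of those changed 1.2-fold, so small differences were not detectable there. The simulated noise was independent between genes, without effects shared by a library, so these shares may not hold for the real libraries.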

Other observations

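Nr4a1, an early-response nuclear receptor gene that stayed under the 5 FPKM minimum in each comparison of MUT with HET, measured 5.79, 3.99 and 3.91 FPKM in MUT, 4.28, 5.62 and 3.94 in HET and 5.99, 4.11 and 3.85 in WT. Its 2 highest libraries were WT-1 and MUT-1, with HET-2 next, and its r with Fos over the 9 libraries was 0.77. Zfp36, which encodes an RNA-decay factor induced with Fos, was 10.7, 10.1 and 7.40 FPKM in the WT libraries, 10.97, 12.1 and 7.30 in the HET libraries and 14.8, 9.67 and 9.92 in the MUT libraries, with MUT-1 highest and HET-3 lowest (r with Fos 0.74). Gadd45b, a stress-response gene, was 6.19 to 6.57 FPKM in WT, 7.04 to 8.97 in HET and 8.54 to 9.29 in MUT, so that every HET and MUT library lay above every WT library, with log2 fold changes of 0.41 for MUT against WT and 0.30 for HET against WT (limma adjusted p = 1.00 and 0.998). Of all tested loci 1.32% lay wholly higher in MUT than in WT and 2.15% wholly higher in HET than in WT. The r of Gadd45b with Fos was 0.19. These 3 genes were picked after their values were seen.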
